A study of Mus musculus with 6 samples.

Results

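The genes described here are 35 genes of DNA replication and S phase, followed in C2C12 muscle cells after depletion of the H19 RNA. They were taken by name: each listed gene was matched to the gene symbol in the array's probe annotation, and where a gene had several probe sets the set with the highest mean over the 6 arrays stood for it. All 35 were measured, out of 21559 units tested (19938 genes with 1 symbol, and probe sets listed under several symbols). C2C12 is an established mouse myoblast line that stops dividing and fuses into myotubes when serum is lowered. The 2 groups were wild type C2C12 cells given a control siRNA (siCon) and wild type C2C12 cells given an siRNA against mouse H19 (simH19), with 3 arrays each. Both groups had been grown in 10% fetal bovine serum, moved at about 90% density to 2% horse serum, transfected on day 1 of differentiation and collected 40 h later. Whether the H19 reagent was a single duplex or a pool is not given in the sources used here. Separate cultures for the triplicates are not stated, and each p-value reflects only how much these samples vary, which can be technical variation.

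DNA replication is prepared in G1, when the origin recognition complex, CDC6 and CDT1 load the MCM helicase onto origins. Cyclin E with CDK2 and the E2F transcription factors then drive entry into S phase, where CDC45 and the GINS complex join MCM to make the active helicase and polymerases copy the DNA. The genes for these proteins are classical E2F targets and are shut down as myoblasts leave the cell cycle and differentiate. In culture some cells stay undifferentiated, so a bulk sample holds RNA of dividing, resting and fused cells together, and fewer cells of a type cannot be told apart from less RNA per cell.

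All values are log2 expression per probe set, differences are H19 siRNA minus control siRNA, and adjusted p-values are from limma with Benjamini-Hochberg adjustment over all units. No probe set carries the symbol H19; the set annotated to Supt6 and to Mir675, a microRNA hosted by H19, averaged 12.24 ± 0.03 on control arrays and 10.34 ± 0.05 after H19 depletion (SD, n = 3 each), or 26.9% of the control level. Of the arrays, H19 siRNA replicate 2 stood slightly apart, with a mean correlation of 0.9962 to the other arrays against 0.9968 to 0.9971 for the rest, and an estimated array weight of 0.41 against 1.01 to 1.39. All 17 skeletal muscle markers were measured and their mean level lay at 11.04 on the 3 control arrays and at 11.12 to 11.17 on the H19 siRNA arrays. Of these, 11 lay higher and 2 lower on all 3 H19 siRNA arrays (10.5% and 7.09% of all units did), and Tnnt2 passed the threshold, as 0.199% of all units did. Of 11 genes taken as markers of undifferentiated and quiescent muscle cells 3 lay higher on all 3 H19 siRNA arrays, Pax7 (0.24), Hes1 (0.22) and Itga7 (0.06). On the same arrays 2 lay lower, Cd34 (-0.15) and Spry1 (-0.19). Mean levels of the 11 were 9.53 to 9.55 in controls and 9.55 to 9.57 after H19 siRNA. This list also holds Myf6, and whether each of its genes is confined to such cells was not tested. Of 7 fibroblast markers 1 lay higher and 2 lower, Pdgfra (-0.25) and Pi16 (-0.19), with mean levels of 8.23 to 8.26 and 8.19 to 8.23. Mean levels in the 2 groups were 5.88 to 5.94 and 5.82 to 6.02 for 5 endothelial markers, 5.53 to 5.62 and 5.57 to 5.75 for 5 adipocyte markers, and 6.17 to 6.20 and 6.14 on all 3 arrays for 7 leukocyte markers. None of the genes of these 5 lists passed. Levels of different probe sets cannot be set against each other, and these genes named were picked after their values were seen. Of 13 measured interferon response genes 6 passed, all higher with H19 siRNA. The part of these marker differences in the results below was not tested.

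None of the 35 replication genes passed an adjusted p of 0.05 in limma, against 0.199% of all units (0.125% higher and 0.0742% lower). At an unadjusted limma p under 0.05 there were 3 of 35, or 8.57%, against 10.9% of all units. These 3 were 2 higher (Cdc45 and E2f1) and 1 lower (Mcm3). After centring each array on its median there were 0 higher and 4 lower of the 35. The share of all units after centring is not given here, so that count is not read as a shift of these genes. In 6 of the 35 (17.1%) all 3 arrays of a group lay beyond all 3 of the other, 3 higher and 3 lower, against 17.6% of all units (10.5% higher and 7.09% lower). Both shares were close to those of all units. The median difference of the 35 genes was 0.02 (median of all units, 0.01), with 22 positive and 13 negative, and single genes ran from -0.20 for Ccne2 to 0.11 for Cdc45. Of the 95% intervals, which reflect only the spread between these arrays, 33 of 35 lay wholly within 0.3 on the log2 scale either way, and over all 35 they reached from -0.43 (Ccne2) to 0.30 (Gins1). The sign of the median depended on the scaling and on single arrays. It was -0.0038 after centring each array on its median, 0.04 without H19 siRNA replicate 2 and -0.0048 without H19 siRNA replicate 3.

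**Figure D1:**
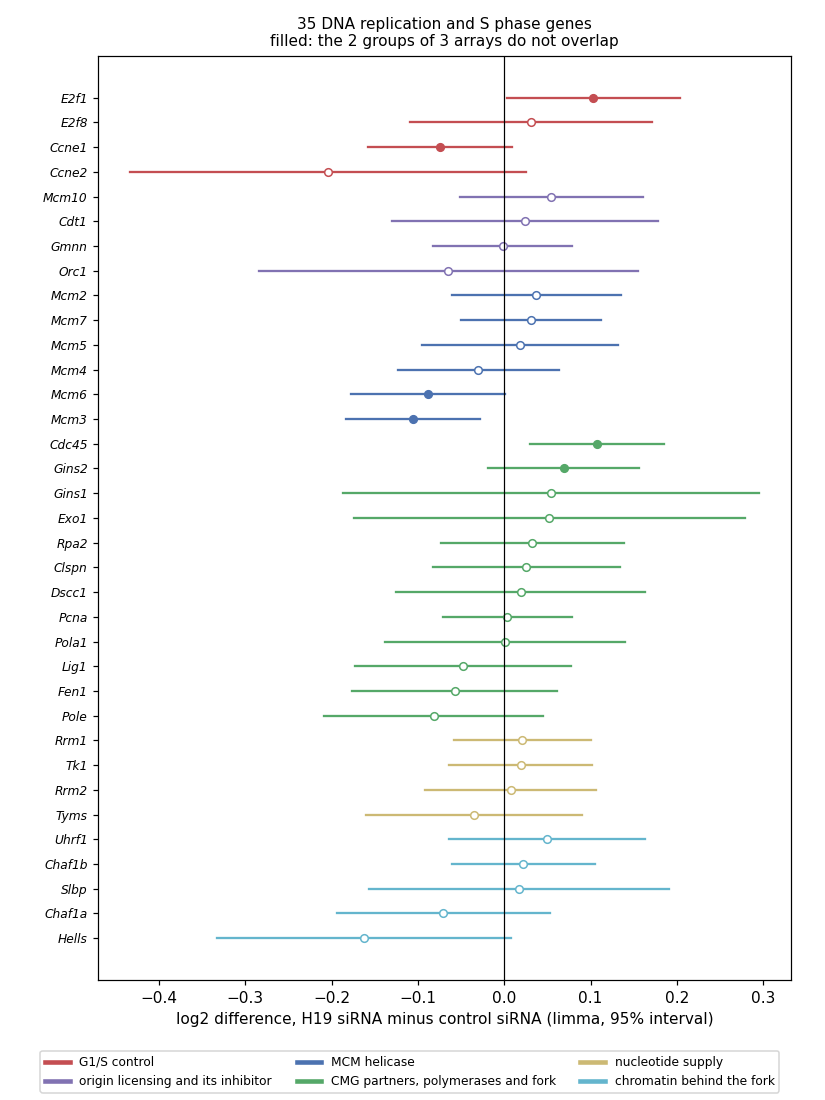
The log2 difference of each of the 35 genes (horizontal axis, H19 siRNA minus control siRNA) with its 95% interval from limma, coloured by role. Filled points are the 6 genes whose 2 groups of 3 arrays do not overlap; 32 of the 35 intervals cross 0.

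Among the genes that control entry into S phase, both E-type cyclins lay lower and E2f1 lay higher with H19 siRNA, none past the threshold. E2f1, a transcription factor that activates replication genes, read 8.76, 8.71 and 8.81 in controls and 8.91, 8.82 and 8.86 after H19 siRNA. The groups did not overlap, but the gap between them was only 0.0094, and the difference of 0.10 (SE 0.04, 95% interval 0.0027 to 0.20) had a limma adjusted p of 0.450. Ccne1, cyclin E1, a partner of CDK2 at the start of S phase, read 8.35, 8.37 and 8.39 against 8.33, 8.26 and 8.29. Its difference of -0.07 (SE 0.04) left every H19 siRNA array just below every control array (limma adjusted p = 0.510).

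Ccne2, cyclin E2, had the widest difference of the 35 genes and it rested on 2 of the 3 arrays. It read 7.70, 7.61 and 7.70 in controls and 7.39, 7.31 and 7.69 with H19 siRNA. H19 siRNA replicate 3 lay within the control range and the other two lay below it. The difference was -0.20 (SE 0.10, 95% interval -0.43 to 0.03, limma adjusted p = 0.509), and it was -0.32 without H19 siRNA replicate 3 (limma adjusted p = 0.204) and -0.13 without H19 siRNA replicate 2 (limma adjusted p = 0.632). E2f8, a repressor of the E2F family that restrains E2F1 targets, read 8.85, 8.90 and 8.84 against 8.99, 8.77 and 8.91. These overlapped, with the highest and the lowest of the 6 values both among the H19 siRNA arrays.

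The 4 genes of origin licensing and its inhibitor overlapped between groups. Cdt1, which loads the MCM helicase, read 9.81, 9.83 and 9.98 in controls and 10.00, 9.83 and 9.86 with H19 siRNA. Gmnn, geminin, the inhibitor of CDT1, read 6.15, 6.14 and 6.10 against 6.12, 6.16 and 6.11. The groups overlapped for the loader and for its inhibitor, with differences of 0.02 (95% interval -0.13 to 0.18) for Cdt1 and -0.0017 (-0.08 to 0.08) for Gmnn. Mcm10, which helps to activate the loaded helicase, read 7.88, 7.86 and 7.74 against 7.89, 7.89 and 7.86, a difference of 0.05 that came mostly from control siRNA replicate 3. Orc1, the largest subunit of the origin recognition complex, averaged 6.27 ± 0.08 in controls and 6.21 ± 0.18 after H19 siRNA (SD, n = 3 each). The difference was -0.06 (95% interval -0.28 to 0.16). It was -0.16 without H19 siRNA replicate 3 and 0.01 without H19 siRNA replicate 2.

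The 6 MCM subunits form a ring in equal numbers, and their probe sets did not all lie to the same side. Mcm3 read 8.91, 8.92 and 8.87 in controls and 8.79, 8.80 and 8.79 with H19 siRNA. The 3 H19 siRNA values lay close together and 0.07 below the lowest control value. Its difference of -0.11 (SE 0.03, 95% interval -0.18 to -0.03) had a limma adjusted p of 0.316. Mcm6 read 9.27, 9.28 and 9.32 against 9.21, 9.16 and 9.24, also without overlap, at -0.09 (SE 0.04, limma adjusted p = 0.464). Both kept a negative sign under all 15 alternatives, from -0.13 to -0.10 for Mcm3 and from -0.11 to -0.07 for Mcm6.

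The other four subunits overlapped between groups. Mcm2 read 10.06, 10.02 and 10.09 in controls and 10.13, 10.03 and 10.12 with H19 siRNA, and Mcm5 read 9.33, 9.21 and 9.29 against 9.36, 9.25 and 9.27. Their differences were 0.04 (95% interval -0.06 to 0.13) for Mcm2 and 0.02 (-0.10 to 0.13) for Mcm5. Mcm7 was 10.49 ± 0.03 and 10.52 ± 0.02, and Mcm4 was 9.69 ± 0.02 and 9.66 ± 0.05 (SD, n = 3 each). The differences of Mcm3 and Mcm6 were therefore not shared by Mcm2, Mcm5 and Mcm7 in sign, although whether any subunit differed from another in its response was not tested. Mcm2 and Mcm7 stayed positive under all 15 alternatives, but Mcm5 did so under only 12 of 15 (-0.02 to 0.04). Mcm4 lay on the side of Mcm3 and Mcm6 and stayed negative under all 15 (-0.06 to -0.0038).

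**Figure D2:**
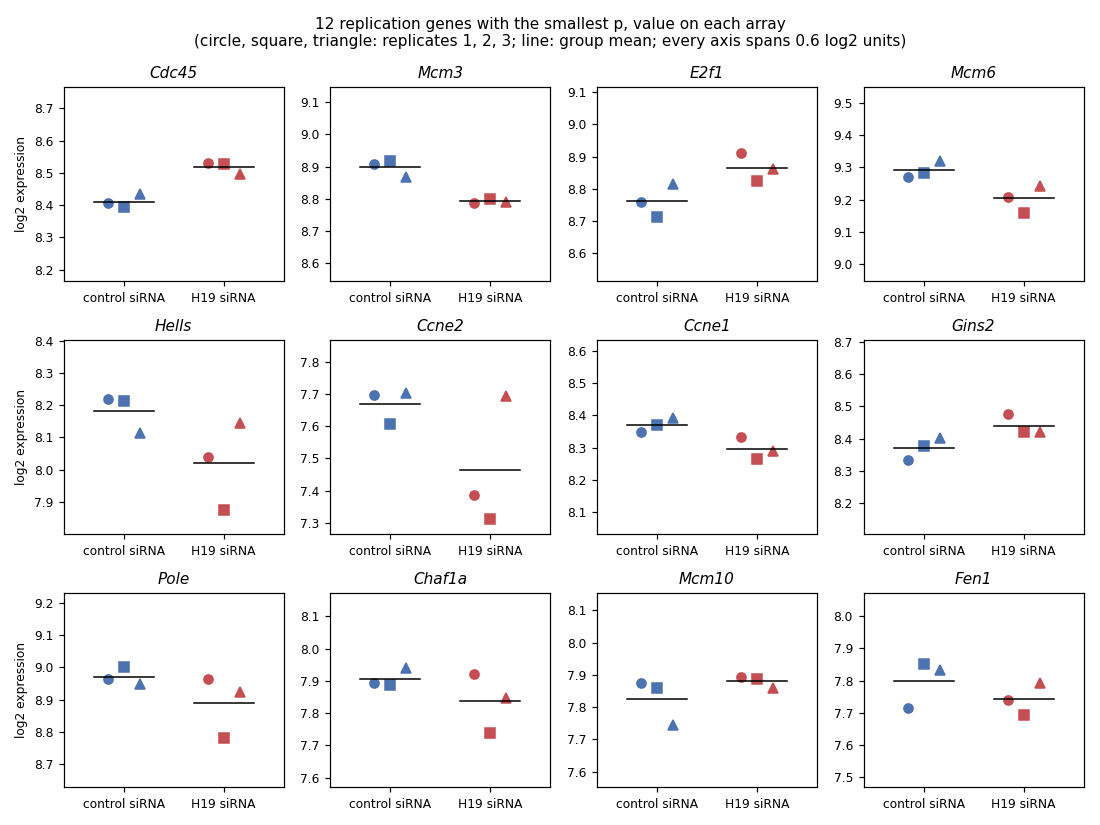
Log2 expression on each array (vertical axes, each spanning the same range) for the 12 genes with the smallest limma p, in the 2 groups; circles, squares and triangles are replicates 1, 2 and 3 and lines are group means. Mcm3 and Cdc45 have the clearest gap between groups, and Ccne2 and Hells have 1 H19 siRNA array at or near the control values.

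Sequence upstream of the MCM genes is shown because E2F control is what this family is known for, and because subunits on either side of 0 can be set beside each other. The stretches run 5′ to 3′ from 180 bases before the RefSeq start site (GRCm38.p6) up to the base before it, except that of Mcm5, which stops 42 bases before it. Capitals mark E2F motifs (TTTGGCGC, TTTCCCGC, TTTCGCGC, TTTGCCGC or TTTGGCGG) and CCAAT boxes on either strand, so the reverse complement ATTGG also stands in capitals. Mcm4 is named only, and the window of Mcm7 is not printed because its start lies 228 bases inside the gene.
Mcm2, chr6:88898781-88898960, minus strand: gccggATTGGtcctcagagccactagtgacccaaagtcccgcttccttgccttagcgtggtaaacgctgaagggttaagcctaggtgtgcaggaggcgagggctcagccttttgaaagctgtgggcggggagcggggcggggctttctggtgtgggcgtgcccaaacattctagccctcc
Mcm3, chr1:20820313-20820492, minus strand: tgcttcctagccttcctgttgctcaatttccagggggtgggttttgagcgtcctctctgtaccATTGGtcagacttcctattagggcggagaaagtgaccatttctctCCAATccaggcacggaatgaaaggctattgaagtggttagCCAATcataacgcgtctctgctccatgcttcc
Mcm5, chr8:75109329-75109467, plus strand: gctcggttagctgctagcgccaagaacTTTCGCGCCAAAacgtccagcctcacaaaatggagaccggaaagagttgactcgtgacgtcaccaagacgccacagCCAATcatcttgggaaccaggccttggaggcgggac
Mcm6, chr1:128359706-128359885, minus strand: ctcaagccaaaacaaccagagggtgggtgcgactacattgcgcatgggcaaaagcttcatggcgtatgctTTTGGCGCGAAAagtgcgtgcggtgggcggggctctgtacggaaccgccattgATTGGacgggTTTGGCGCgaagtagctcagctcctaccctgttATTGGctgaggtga

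Mcm6, which lay lower, and Mcm5, which did not, both hold an E2F motif in these stretches, in each case a pair that overlaps on opposite strands. Mcm6 holds a further E2F motif 47 bases before the start. Mcm3 holds 3 CCAAT boxes before the start and its 2 E2F matches after it, from bases 20 and 39. Mcm2 holds a CCAAT box and no E2F match. In the whole window Mcm3, Mcm5 and Mcm6 each held both kinds of motif, and those of Mcm5 include CCAAT boxes beyond the stretch printed.

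Over the whole list, 27 of the 35 genes had a promoter window of 300 bases (250 before and 50 after the start) in the RefSeq table. An E2F motif was found in 12 of the 27 (44.4%), against 3.18% of 27025 genes with such a window, and a CCAAT box in 18 (66.7%), against 41.1%. Of the other replication pathway genes 31.5% held an E2F motif and of mitosis genes 11.1%. A CCAAT box was found in 53.9% of the other replication pathway genes and in 75% of mitosis genes. Its share was thus higher in mitosis genes than in the replication genes. A match is only a match of letters. For 20 of the 27 genes the start of the window nearest the gene's 5′ end in RefSeq lay within 50 bases of that end. For E2f1 and E2f8 it lay 466 and 477 bases inside the gene, so their lack of an E2F match holds for that window alone. Some E2F matches also came from starts inside the gene, at 228 bases for Mcm7, 232 for Pola1, 728 for Hells and 3749 for Orc1. The E2F matches of Lig1 and Uhrf1 lay in another of their windows, further inside the gene.

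**Figure D3:**
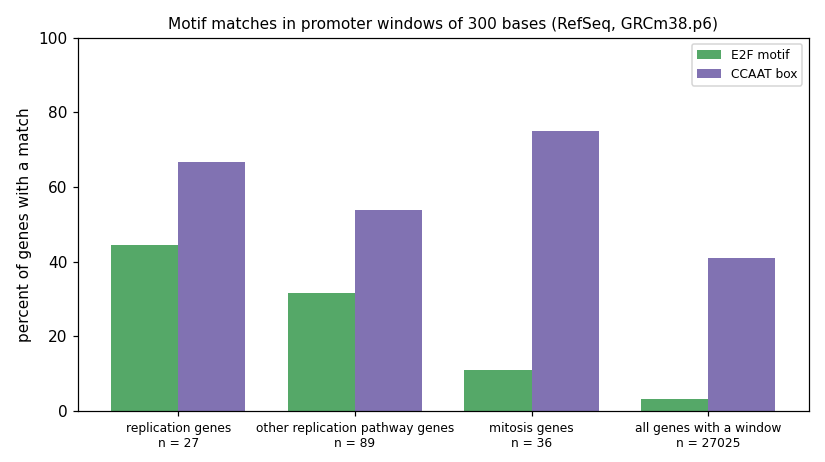
Percent of genes (vertical axis) whose 300-base RefSeq promoter window holds an E2F motif (green) or a CCAAT box (purple), for 27 replication genes, 89 other replication pathway genes, 36 mitosis genes and all 27025 genes with a window. The E2F share is 44.4% for the replication genes and 3.18% for all genes.

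Among helicase partners, Cdc45 and Gins2 lay higher with H19 siRNA. Cdc45, which joins MCM and GINS in the active helicase, read 8.41, 8.39 and 8.43 in controls and 8.53, 8.53 and 8.50 with H19 siRNA. The 2 groups stood 0.06 apart and each spread by less than that. Its difference of 0.11 (SE 0.03, 95% interval 0.03 to 0.19), a 1.08-fold difference, had the smallest p of the 35 genes and a limma adjusted p of 0.310. The sequence before its start is printed for comparison with the MCM genes and holds an ATTGG but no E2F match (a second ATTGG crosses the start).
Cdc45, chr16:18811973-18812152, minus strand: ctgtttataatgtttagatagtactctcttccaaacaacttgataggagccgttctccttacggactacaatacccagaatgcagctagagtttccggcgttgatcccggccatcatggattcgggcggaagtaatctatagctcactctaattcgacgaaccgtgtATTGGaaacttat

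Gins2, a subunit of the GINS complex, read 8.33, 8.38 and 8.40 in controls and 8.48, 8.42 and 8.42 with H19 siRNA, a difference of 0.07 (SE 0.04, limma adjusted p = 0.563). The groups were 0.02 apart. Gins1, another GINS subunit, was 7.59 ± 0.10 and 7.64 ± 0.20 (SD, n = 3 each), overlapping and with the widest interval of the fork genes (-0.19 to 0.30).

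The polymerase and fork genes overlapped between groups. Pole, the catalytic subunit of the leading strand polymerase, read 8.9627, 8.9999 and 8.9490 in controls and 8.96, 8.78 and 8.92 with H19 siRNA, where only replicate 2 and to a lesser degree replicate 3 lay below the controls. Fen1, the nuclease that trims Okazaki fragment flaps, read 7.71, 7.85 and 7.83 against 7.74, 7.69 and 7.79. Pcna, the sliding clamp, read 12.13, 12.11 and 12.11 against 12.10, 12.13 and 12.13. Its groups overlapped, with a difference of 0.0037 and a 95% interval from -0.07 to 0.08. Pola1, the catalytic subunit of the priming polymerase, differed by 0.00095 (95% interval -0.14 to 0.14). The ligase gene Lig1 differed by -0.05, the single-strand binding protein gene Rpa2 by 0.03, the checkpoint mediator Clspn by 0.03, the nuclease Exo1 by 0.05 and the clamp loader subunit Dscc1 by 0.02, with limma adjusted p-values of 0.786 to 0.935.

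Nucleotide supply had the narrowest range of differences of the roles. Rrm2, the regulated subunit of ribonucleotide reductase, read 10.64, 10.63 and 10.71 in controls and 10.63, 10.65 and 10.73 with H19 siRNA. Tyms, thymidylate synthase, read 9.59, 9.63 and 9.65 against 9.59, 9.49 and 9.68. In both genes replicate 3 of each group was the highest and the groups overlapped. Rrm1, the large subunit of the reductase, was 11.41 ± 0.03 and 11.43 ± 0.0079, and Tk1, thymidine kinase, was 8.39 ± 0.03 and 8.41 ± 0.02 (SD, n = 3 each). The 4 differences lay between -0.04 and 0.02, with limma adjusted p-values of 0.852 to 0.966.

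Of the genes that rebuild chromatin behind the fork, Hells had the most negative difference. Hells, a remodelling ATPase needed for DNA methylation, read 8.22, 8.21 and 8.12 in controls and 8.04, 7.88 and 8.14 with H19 siRNA. Replicate 3 lay within the control range. The difference was -0.16 (SE 0.07, 95% interval -0.33 to 0.0073, limma adjusted p = 0.484) and it was -0.23 without that array and -0.09 without H19 siRNA replicate 2. Chaf1a, the large subunit of the histone chaperone CAF-1, read 7.89, 7.89 and 7.94 against 7.92, 7.74 and 7.85, and its partner Chaf1b was 8.55 ± 0.0049 and 8.57 ± 0.04 (SD, n = 3 each). Uhrf1, which brings DNA methyltransferase to new DNA, differed by 0.05, and Slbp, which binds the end of histone mRNAs, by 0.02.

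The 35 genes spread more among the H19 siRNA arrays than among the control arrays, and most lay lowest of that group on replicate 2. On that array 26 of the 35 (74.3%) lay below both other H19 siRNA arrays, against 44.8% of all units, and the median gene lay 0.07 below the mean of those arrays (all units, 0.02 below). Mitosis genes did likewise, with 39 of 45 (86.7%) below both others. On H19 siRNA replicate 3, 18 of the 35 genes (51.4%) lay above both others of the group, against 36.2% of all units. On no control array were more than 13 of the 35 below both others. The median SD of the genes was 0.03 in controls and 0.05 with H19 siRNA, and for all units 0.05 and 0.06. Without replicate 2, 3 of 35 genes had an unadjusted limma p under 0.05 (all units, 12.1%), and without replicate 3 there were 6 of 35, 5 of them lower (all units, 11.6%). The cause of the difference between these arrays was not tested.

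**Figure D4:**
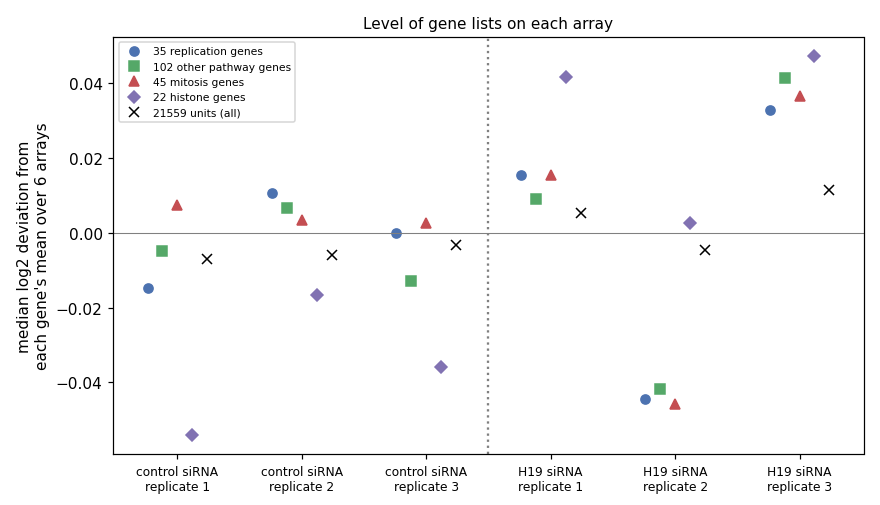
Median deviation of each gene list from its genes' own means over 6 arrays (vertical axis, log2), on each array. Replication, other pathway and mitosis genes are lowest on H19 siRNA replicate 2 and highest on replicate 3, while histone genes are higher on all 3 H19 siRNA arrays than on all 3 control arrays.

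The other genes of the pathway gave the same count of 0 calls in limma. Of 107 written down 102 were measured, 54 had a positive and 48 a negative difference, 18 (17.6%, against 10.9% of all units) had an unadjusted p under 0.05, 13 higher and 5 lower, and 31 (30.4%, against 17.6% of all units) did not overlap between groups. Among 16 licensing and firing genes those with the smallest p were Mcm9, an MCM relative in DNA repair, at -0.14, Recql4, a helicase needed for initiation, at 0.14, and Cdc6, which loads MCM with CDT1. Cdc6 read 6.59, 6.91 and 6.69 in controls and 7.09, 6.98 and 6.87 with H19 siRNA. These overlapped in 1 control array, and the difference was 0.25 (95% interval 0.03 to 0.47, limma adjusted p = 0.402). Among 36 polymerase and fork genes the smallest p belonged to the polymerase delta subunit Pold2 (0.14), the primase-polymerase subunit Pola2 (0.10) and the clamp loader subunit Chtf8 (0.08). Among 13 nucleotide genes they were the nucleoside transporter Slc29a1 (0.17), the kinase Dck (0.18) and the CTP synthase Ctps (0.09). Slc29a1 passed in limma with an intensity trend and robust variance (adjusted p = 0.000256) and among units above the median level (adjusted p = 0.0218), against an adjusted p of 0.138 as reported. Among 10 chromatin genes the smallest p belonged to the histone acetyltransferase Hat1 (-0.08), Cdca7 (0.08) and the histone methyltransferase Kmt5a (0.03).

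The other G1/S regulators were counted the same way. Of 27 measured, 11 (40.7%, against 10.9% of all units) had an unadjusted limma p under 0.05, 7 higher and 4 lower. In 14 (51.9%, against 17.6% of all units) the groups did not overlap, 8 higher and 6 lower. This list was written with earlier results of these data known, and its part in these shares was not tested. The median was -0.0053, and the members went both ways. Cdkn2c, the CDK4 and CDK6 inhibitor p18, read 9.52, 9.49 and 9.55 in controls and 9.33, 9.24 and 9.28 with H19 siRNA. E2f2, a second activating E2F, read 9.53, 9.58 and 9.56 against 9.86, 9.72 and 9.81. In both genes the groups did not overlap. The difference was -0.23 (SE 0.04, limma adjusted p = 0.100) for Cdkn2c and 0.24 (SE 0.04, limma adjusted p = 0.129) for E2f2. Myc, a growth-promoting transcription factor, was 11.85 ± 0.02 and 11.98 ± 0.04 (SD, n = 3 each, difference 0.13, limma adjusted p = 0.248). Ccnd1, cyclin D1, was 11.27 ± 0.0045 and 11.23 ± 0.02. With an intensity trend and robust variance in limma Cdkn2c, E2f2, Myc, Rb1 and Cdk6 passed (adjusted p from 0.00817 to 0.0179). With only the units above the median level Cdkn2c and E2f2 did (limma adjusted p of 0.0171 and 0.0265). With either setting 0 of the 35 replication genes passed. Both settings called only a small share of all units, as counted below, so 0 of 35 is not read as a contrast with these regulators.

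**Figure D5:**
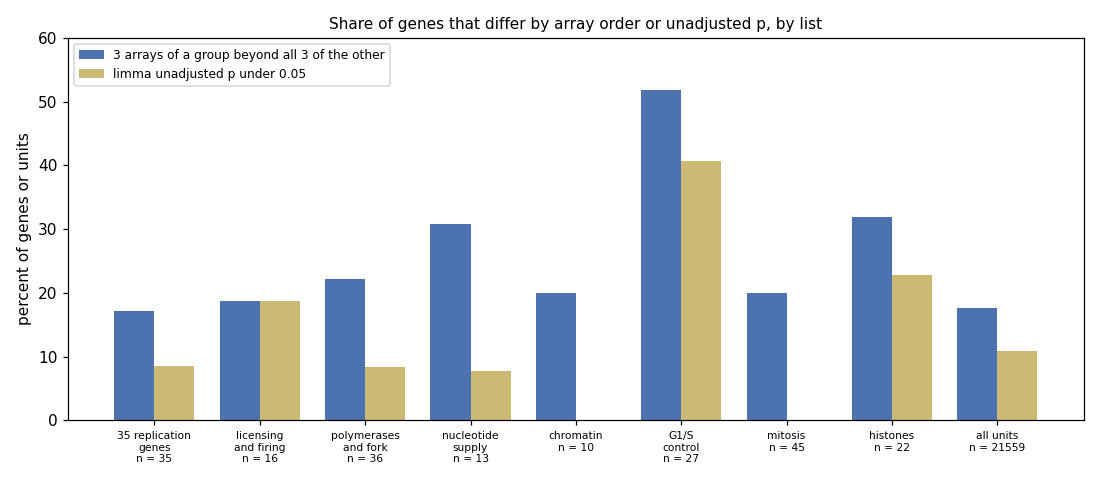
Percent of genes in each list (vertical axis) whose 2 groups of 3 arrays do not overlap (blue) or whose unadjusted limma p is under 0.05 (yellow), with the same over all units at the right. The 35 replication genes stand at 17.1% and 8.57%, all units at 17.6% and 10.9%, and the other G1/S regulators at 51.9% and 40.7%.

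Genes that act beside replication gave these values. Of 45 mitosis genes 0 passed in limma and 0 had an unadjusted p under 0.05, with a median of -0.0041. Those with the smallest p were the kinetochore gene Spc25 (-0.15), the spindle midzone gene Prc1 (0.09) and the kinase Pbk (-0.12). Mki67, the proliferation marker Ki-67, read 10.13, 10.10 and 10.07 in controls and 10.05, 9.95 and 10.06 with H19 siRNA, at -0.08 with a limma adjusted p of 0.567. Of 53 replication-dependent histone genes written down, whose mRNAs are made in S phase, only 22 were measured and 31 were not. Of the 22 measured, 19 had a positive difference, the median was 0.05 and 0 passed in limma. At an unadjusted limma p under 0.05 there were 5 (22.7%, against 10.9% of all units), all higher. In 7 (31.8%, against 17.6% of all units) the groups did not overlap, all higher. H1f1 (0.15), H2ac4 (0.20) and H1f5 (0.11) had the smallest p. H1f1 passed in limma with an intensity trend (adjusted p = 0.0209) and among units above the median level (adjusted p = 0.0453), and H4c14 (0.10) with the trend (adjusted p = 0.0435). Many histone genes outside the H1 group are near-identical copies that probe sets may not separate.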

How the data were processed

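Total RNA was hybridised to 6 Affymetrix arrays. The authors deposited log2 probe set values; the submitters' processing notes name RMA and Affymetrix Expression Console. RMA is a method of background correction, quantile normalisation and probe summary. Neither a version nor an annotation release is given in the sources used here. Of 35556 rows 21789 had 1 symbol in GEO's platform annotation, 1621 several (kept as unnamed units) and 12146 were not listed. Values lay between 2.97 and 14.6. Groups came from the sample titles.

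H19 siRNA was compared with control siRNA with lmFit and eBayes of limma 3.58.1 (R 4.3.3), two-sided, over all 21559 units and 6 arrays, without covariates or a filter on dim probe sets. The fit was tested on simulated data. Intervals are 95% moderated intervals. Scanner intensities were not used, so probe sets near background are not marked, and the number of arrays limits the precision. The members and lists were chosen with earlier results of these data known. Values on every array are given for the 12 genes with the smallest p and for 11 genes named by role, and 3 genes of smallest p are named per list. Other genes named, those that passed only under an alternative, were chosen after their values were seen. Cdkn1a was not analysed here. Promoter windows were read from RefSeq (GRCm38.p6). Alternatives covered the variance model, array weights, scaling, filters, probe set choice, the replicate block and leaving out each array.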

Additional observations from a re-analysis of the deposited data

How the results depend on the processing

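The count of 0 replication genes past the threshold held under all 15 alternatives, and 19 of the 35 genes kept their sign under every alternative run for them. The intensity trend, the filters and the replicate block leave each difference unchanged, so those alternatives could not change a sign. The number of units called depended on the setting: 43 as reported (27 higher, 16 lower), 435 with an intensity trend and robust variance, 70 with array weights, 111 among units above the 30th percentile of mean level, 266 among those above the median, 11 over all rows of the table, and 1 to 21 when any of the 6 arrays was left out. After median centring it was 36 (19 higher, 17 lower). Over the pathway and comparison lists, 8 of 169 genes passed with an intensity trend and 4 of 151 with the filter at the median, against 0 as reported. These settings also called more units, 435 of 21559 with the trend and 266 with the filter. The filter tests only units above the median level, so 21559 is not the total for its 266. The list shares were not tested against those of all units, and the list counts are not read as a gain particular to the lists. The median of the 35 genes ran from -0.0048 to 0.04 without 1 array. The share of genes with an E2F motif was 33.3% in the 250 bases before the start.

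Whether the replicate numbers pair the samples is not stated. Deviations of same-numbered arrays from their group means correlated at -0.02, -0.13 and -0.14, and those of differently numbered arrays at -0.03 to 0.13. With 3 arrays per group such correlations cannot exclude a pairing. With the replicate block 3 units and 0 of the 35 genes were called. At an unadjusted limma p under 0.05 there were then 0 higher and 2 lower of the 35. The share of all units at that p with the block is not given here, so no shift is read from it. Leaving out an array also leaves fewer degrees of freedom. Signal over background could not be judged, and 5 of the 35 genes lay below the median level of all units.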

Other observations

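Of the 35 genes 3 had a second probe set listed under the same symbol. That of Pcna read 12.11 ± 0.02 and 12.12 ± 0.02 (SD, n = 3 each), close to the set used. The second set of Slbp read 8.83, 8.85 and 8.80 in controls and 8.91, 8.66 and 9.01 with H19 siRNA, a wider spread among the H19 siRNA arrays than the set used. That of Tk1 differed by -0.04 where the set used differed by 0.02, and the interval of each spans 0.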
